A study of Mus musculus with 12 samples.

Results

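The tripartite motif (TRIM) family was followed through the response of mouse dendritic cells to a bacterial stimulus. Members were the protein-coding genes of GENCODE M21 whose symbol starts with Trim and a digit and whose deposited expected count averaged 10 or more over all 12 libraries. Of 68 such symbols, 47 met the minimum and 21 did not, among them 6 listed at 0 in every library. All 47 also passed the filter on low counts and stood among the 14357 genes tested, out of 55335 genes listed.

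RNA-seq was carried out on bone marrow cells of C57BL/6 mice that were grown for 6 days with GM-CSF, a cytokine that drives precursors into a monocyte-derived dendritic cell state (BMDC), with the medium changed every 2 days. Every library came from cells that carried the CreER transgene (an inducible Cre, expressed from the ubiquitous Rosa26 locus) with intact Ctcf alleles, and by the methods of the study BMDC were enriched for CD11c+ cells. Its methods used 4-hydroxytamoxifen for deletion of Ctcf, and whether these cultures received it is unclear. The 4 groups of 3 libraries were WT (untreated, replicates 4 to 6), WTL (LPS at 100 ng/ml for 3 h, replicates 4 to 6), WT + JSH23 (JSH-23 at 100 µM for 3 h, replicates 1 to 3) and WTL + JSH23 (JSH-23, then LPS at those doses and times, replicates 1 to 3). LPS is a cell wall component of Gram-negative bacteria that activates Toll-like receptor signalling, and JSH-23 is a small molecule that keeps RelA, a subunit of NF-κB, out of the nucleus. Solvent controls for JSH-23 are not described, and the labels name no animals, cultures or sequencing batches, while the study describes the samples behind its expression plots as biologically independent.

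Libraries held between 24664724 and 34837847 expected counts. WTL + JSH23 replicate 3 differed most from its group, with a chi-square per degree of freedom of 7.87 and 8.72 against replicates 1 and 2, where all other replicate pairs had at most 4.38. Without it, 11 members rose and 21 fell with LPS after JSH-23 (9 and 22 with it), 18 were higher and 17 lower with JSH-23 in LPS-treated cells (the same counts as with it), of which 11 changed by more than 2-fold (9 with it). In untreated cells 11 were higher and 18 lower with JSH-23 (9 and 17 with it), and the interaction passed for 14 (13 with it). Of the 14666 genes tested without it, 3781 rose and 3714 fell with LPS after JSH-23. With JSH-23, 3289 were higher and 3296 lower in LPS-treated cells, 482 and 442 of them by more than 2-fold. In untreated cells 2888 were higher and 3342 lower, and the interaction was higher for 1458 and lower for 1380. Of 7 dendritic cell markers 6 were among the genes tested, with a summed level of 17328 to 19617 TPM over all libraries, while Cd209a had at most 5 counts in a library. All 6 lymphocyte, 4 mast cell and basophil, and 3 erythroid markers had at most 11 counts. All 7 macrophage markers were among the genes tested, with a summed level of 1183 to 1226 TPM in WT, 1794 to 1812 in WTL, 1068 to 1111 in WT + JSH23 and 1640 to 1732 in WTL + JSH23. Of 9 neutrophil markers 6 were tested, with sums of 195 to 219, 218 to 226, 189 to 210 and 172 to 190 TPM in the same order, and Ly6g, Elane and Retnlg had at most 6 counts. These marker sums moved with the groups compared below, and their part in the changes of TRIM genes was not tested. In bulk RNA, fewer cells of a type and less RNA per cell cannot be told apart.

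Most TRIM proteins are RING-type E3 ubiquitin ligases that share a B-box and a coiled coil and differ in the domain at the end of the chain. A PRY-SPRY domain, found in many of them, recognises partners such as viral proteins or immune sensors, and other members carry NHL repeats or a PHD finger with a bromodomain. Many TRIM genes are known as interferon-stimulated genes, and individual members raise or restrain signalling from RNA sensors, Toll-like receptors and NF-κB. The members were read here in groups by known role. These were the Trim5/Trim30 antiviral cluster (10 genes), innate signalling (10), chromatin (3), NHL repeat (3), cytoskeleton (3) and others (18).

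The cluster lies on chr7 (GRCm38), from Trim6, at chr7:104218793-104235152, through Trim34a, Trim5, Trim12a, Trim34b, Trim12c, Trim30b, Trim30c and Trim30a to Trim30d, at chr7:104470014-104507849. Trim21 is on the same chromosome at chr7:102557921-102565486, Trim25 at chr11:88999376-89020293, Trim26 at chr17:36837134-36859398 and Trim35 at chr14:66297031-66311424.

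RefSeq promoters (GRCm38.p6, from 250 bases before the annotated start to 50 after it) were found for 34 of the 47 members, 47 promoters in all. Both strands were searched for the core of the interferon-stimulated response element (ISRE), to which interferon-regulated transcription factors bind, here the letters GAAA, any 2 bases and GAAA again. It was present in 10 promoters of 9 members, against 3.44% of all 32851 promoters. The windows below, of 30 bases each, are shown because 6 of the 9 genes belong to the cluster and Trim21 and Trim26 were among the members that rose with LPS. Each is printed 5′ to 3′ on the strand that holds the match, with the matching bases in capitals.
Trim5 (chr7:104288136-104288165, + strand): ctctggaaatGAAACAGAAAccacaactct
Trim12a (chr7:104315466-104315495, + strand): ctctggaaatGAAACAGAAAccacaactct
Trim12c (chr7:104353359-104353388, + strand): agctggaaatGAAACAGAAAccacaactct
Trim30a, upstream start (chr7:104465210-104465239, + strand): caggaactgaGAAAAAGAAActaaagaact
Trim30a, second start (chr7:104446104-104446133, + strand): caggaactgaGAAAAAGAAActaaaaacaa
Trim30d (chr7:104507871-104507900, + strand): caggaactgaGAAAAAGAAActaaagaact
Trim34a (chr7:104244457-104244486, − strand): gcagagaaaaGAAACTGAAActccaaacca
Trim21 (chr7:102565447-102565476, − strand): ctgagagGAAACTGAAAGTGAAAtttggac
Trim26 (chr17:36836979-36837008, − strand): ggcccgaGAAAAGGAAAGTGAAAtcggaag
Trim2 (chr3:84212791-84212820, + strand): ctgtcttagaGAAAAGGAAAccaaagctga

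The windows of Trim5 and Trim12a were identical, as were those of Trim30d and the upstream start of Trim30a. Trim21 and Trim26 each held 2 overlapping matches. The start used for Trim2, at chr3:84212838 on the − strand, lies inside the gene, whose annotation begins at chr3:84306877 on that strand. Counted from the first transcribed base as 1, the match lay before the start in Trim5 (bases -49 to -40), Trim12c (-29 to -20), Trim30d (-41 to -32), the upstream start of Trim30a (-36 to -27) and Trim26 (-160 to -145), and just inside the first exon in Trim12a (11 to 20), Trim34a (11 to 20), Trim21 (14 to 29), Trim2 (29 to 38) and the second start of Trim30a (3 to 12). The STAT site core, the letters TTC, any 3 bases and GAA, which reads the same on both strands, was present in the promoters of Trim30c, Trim45 and Trim46, against 8.3% of all promoters. No member promoter held the NF-κB consensus, which 4.51% of all promoters held. The promoter of Trim25 held none of these motifs. The study itself, from sequencing of bound chromatin, reports STAT5 at the promoter region of Trim25 in WT BMDC, and its loss in CTCF-deficient BMDC. A match is a string of letters and not a bound site, and a missing match covers only this window.

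To compare levels between genes, deposited TPM values, which correct for transcript length, were used. Trim30a, known as a brake on Toll-like receptor signalling to NF-κB, had the highest level, with a mean of 319 TPM over the 12 libraries, or 21% of the summed TPM of the members. It was followed by its neighbour Trim30d (201 TPM), Trim25 (100 TPM), Trim35 (98.1 TPM) and Trim21 (79.2 TPM), and these 5 genes held 52.5% of the summed level. Trim25 encodes the ligase that modifies the RNA sensor RIG-I, and Trim21 a cytosolic antibody receptor. Trim30a, at 246 to 391 TPM, and Trim30d, at 152 to 250 TPM, barely overlapped over the 12 libraries. The means of Trim25 and Trim35 differed by less than the spread over libraries, with ranges of 66.8 to 125 and 65.3 to 132 TPM, and the range of Trim21, 35.0 to 144 TPM, covered both. Trim12a, Trim12c, Trim14, Trim26 and Trim28 came next, and 10 genes held 73.9% of the summed level. Trim9, at 0.178 TPM, had the lowest mean level of the 47.

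**Figure D1:**
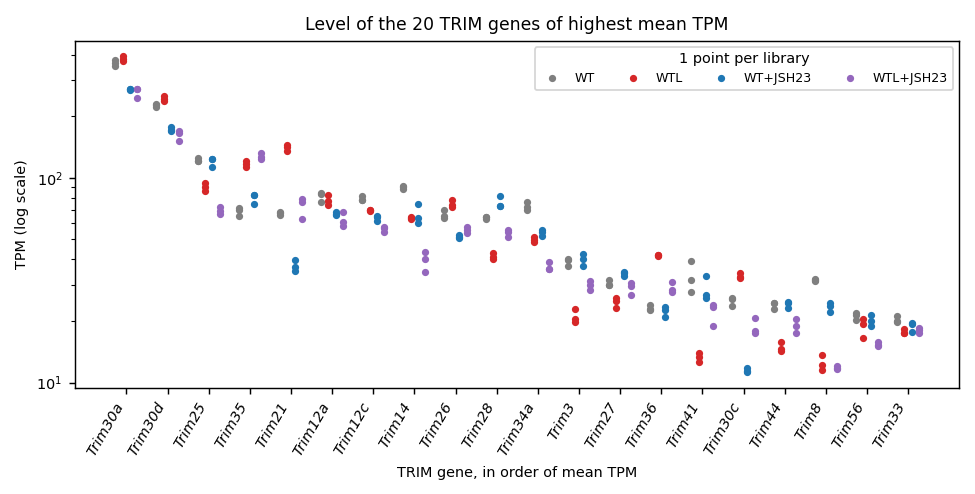
Level in TPM (log scale) of the 20 TRIM genes of highest mean, with 1 point per library and colours for the 4 groups. Trim30a lies highest in every group, and the WTL points of Trim21 and Trim35 lie above their WT points.

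The summed TPM of the members was 1690 to 1719 in WT and 1614 to 1664 in WTL. It was 1408 to 1457 in WT + JSH23 and 1272 to 1318 in WTL + JSH23. The 4 groups did not overlap, and the order of the sums was WT, WTL, WT + JSH23 and WTL + JSH23. As a share of expected counts, the members took 0.323% to 0.330%, 0.306% to 0.313%, 0.284% to 0.288% and 0.241% to 0.252% in the same order. Neither measure was scaled by TMM, edgeR's scaling of library sizes. The TMM factors were 1.08 to 1.09 in WT and 0.859 to 0.880 in WTL. They were 1.11 to 1.12 in WT + JSH23 and 0.939 to 0.956 in WTL + JSH23. A lower factor raises a scaled level, so this order need not hold for the scaled levels tested below.

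**Figure D2:**
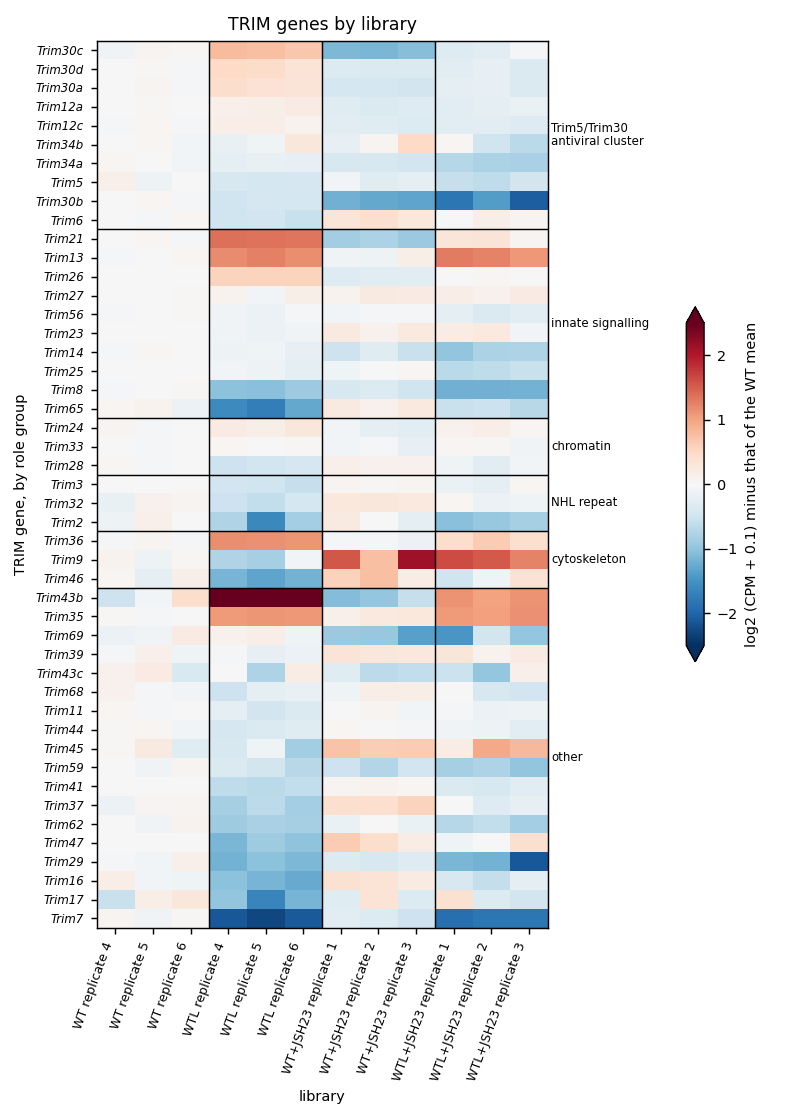
Log2 of CPM + 0.1 in each library minus that of the WT mean, for the 47 TRIM genes in rows by role group and the 12 libraries in columns; colours end at 2.5 in either direction. Trim43b, Trim21, Trim13, Trim35 and Trim36 are red in the WTL libraries and Trim7 is blue in every library with LPS.

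To see which TRIM genes responded to LPS, WTL was compared with WT by the quasi-likelihood F-test of edgeR, with p values adjusted over all 14357 genes. The larger share of the family fell. Of 47 members, 25 fell (53.2%) against 34.7% of all genes tested, and 12 rose (25.5%) against 31% of all genes. The median log2 fold change was -0.32 for the members and -0.05 for all genes. By more than 2-fold, 5 members rose (7.36% of all genes) and 8 fell (9.09% of all genes). The 5 included Trim43b, which met the minimum of the family through its LPS libraries, so its rise is partly set by that rule. The 8 included Trim17 and Trim46, which averaged 5.17 and 5.67 counts in WTL and met the minimum through the other groups. Their falls are partly set by the rule too. On deposited TPM with limma, which moved the median of all genes to -0.26, 7 members rose and 29 fell, against 1911 and 7802 of all 14357 genes. Under upper quartile scaling, with that median at -0.13, 9 rose and 28 fell, against 3749 and 5832 of all genes.

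Of the 10 innate signalling members, 3 rose (30%) and 4 fell (40%) with LPS, against those shares of all genes (median -0.10). The rises of more than 2-fold were those of Trim21 and Trim13 of this group, Trim36 of the cytoskeleton group, and Trim35 and Trim43b among the others. Trim21 measured 90.2, 94.2 and 88.2 CPM (counts per library size, with sizes scaled by edgeR's TMM) in the WT libraries and 238, 234 and 229 CPM in the WTL libraries. All WTL libraries were above all WT libraries, and the log2 fold change was 1.36 (SE 0.05, adjusted p = 3.0e-15). Trim13, which encodes a ligase anchored in the endoplasmic reticulum, rose from 7.94 ± 0.267 to 18.4 ± 0.777 CPM (SD, n = 3, log2 fold change 1.21). Its WT libraries measured 7.68, 7.94 and 8.21 CPM and its WTL libraries 18.1, 19.3 and 17.8 CPM, without overlap. Trim35 rose from 138, 130 and 137 CPM to 282, 291 and 287 CPM (log2 fold change 1.09, SE 0.04). Trim36, a microtubule-associated member, rose from 50.8, 55.6 and 51.9 CPM to 118, 116 and 113 CPM (log2 fold change 1.13, SE 0.05). In each of these 4 genes the WTL libraries lay close together and far from WT.

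Trim43b, of a group of TRIM genes known from the early embryo, was scarce and met the minimum of the family through its LPS libraries (mean counts of 64.2 in WTL and 19.3 in WTL + JSH23, against 9.75 in WT and 3.68 in WT + JSH23). It measured 0.183, 0.285 and 0.448 CPM in WT and 2.67, 2.5 and 2.26 CPM in WTL. Over the summed counts, 29 in WT and 193 in WTL, the ratio was 8.31 (95% counting interval 5.61 to 12.7), and the fitted log2 fold change was 3.03 (adjusted p = 3.4e-09). Of its transcript windows of 100 bases, 20.9% also occur in other genes' transcripts, so its counts are uncertain between copies. Trim43c, its relative, did not pass the test (log2 fold change -0.19, adjusted p = 0.55).

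Trim26, which acts on the interferon transcription factor IRF3, rose by a smaller step, from 94.3, 93.7 and 95.4 CPM to 139, 139 and 138 CPM (log2 fold change 0.55). The cluster was split, with 5 of its 10 genes higher, 4 lower and Trim34b not passing (50% and 40%, against 31% and 34.7% of all genes). Trim30c rose from 21.2, 23.7 and 23.0 CPM to 39.4, 38.1 and 36.3 CPM (log2 fold change 0.74), with no overlap. Trim30a measured 748, 792 and 731 CPM in WT and 1021, 976 and 942 CPM in WTL (log2 fold change 0.37), and Trim30d 356, 362 and 341 CPM in WT and 496, 483 and 450 CPM in WTL (0.43). The rises of Trim30a and Trim30d did not pass on TPM (log2 differences 0.07 and 0.10). Trim12a and Trim12c rose with log2 fold changes of 0.16 and 0.14, but neither passed under upper quartile scaling and both turned negative on TPM, at -0.06 (not passing) and at -0.19 for Trim12c, which there passed as a fall (adjusted p = 0.00068). Trim5, Trim6, Trim30b and Trim34a fell, with log2 fold changes from -0.51 to -0.21. Trim30b went from 26.5, 27.5 and 26.2 CPM to 18.9, 20.1 and 19.8 CPM (-0.45), and all its WTL libraries were below WT. Trim5 shares 12.7% of its windows with other transcripts, Trim34a 22.6%, Trim12a 8.38%, Trim12c 7.64%, Trim30d 5.53% and Trim30a 4.79%, so reads may be divided between these copies.

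The deepest fall was that of Trim7, known as a partner of the glycogen primer glycogenin. Its WT libraries measured 45.4, 40.7 and 44.3 CPM and its WTL libraries 9.88, 8.87 and 10.1 CPM. No library overlapped, and the log2 fold change was -2.18 (SE 0.07, adjusted p = 1.7e-16). Trim7 overlaps Gm12184 and had fractional counts in all 12 libraries. Trim65, which modifies the RNA sensor MDA5, fell from 17.5, 17.9 and 15.3 CPM to 5.54, 5.0 and 6.91 CPM (log2 fold change -1.56). Trim8, described as an activator of NF-κB, fell from 62.2, 63.3 and 65.1 CPM to 31.2, 30.6 and 33.7 CPM (-1.0).

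All 3 NHL repeat members fell, as did 34.7% of all genes. Trim2, best known from neurons, went from 1.96, 2.36 and 2.14 CPM to 1.24, 0.633 and 1.15 CPM (log2 fold change -1.12), Trim3 from 29.8, 30.2 and 30.2 CPM to 21.7, 21.2 and 20.03 CPM (-0.52), and Trim32, known for its role in muscle, by a log2 fold change of -0.54. No WTL library of these genes reached the WT range. Trim28, the corepressor of KRAB zinc finger proteins, fell from 70.6, 68.1 and 69.9 CPM to 48.8, 50.2 and 52.3 CPM (-0.47). The other chromatin members were Trim24, with a log2 fold change of 0.21 that did not pass under upper quartile scaling (0.12) and was -0.13 on TPM, and Trim33, which did not pass the test (0.03).

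Several scarce members also fell by more than 2-fold. Trim16, linked to damaged lysosomes, went from 3.73, 3.16 and 3.07 CPM to 1.59, 1.43 and 1.34 CPM (log2 fold change -1.19). Trim29, which lacks a RING domain, went from 4.10, 4.04 and 4.62 CPM to 1.82, 2.03 and 1.89 CPM (-1.14). The groups did not overlap in either gene. Trim46, known from neuronal microtubules, went from 0.673, 0.541 and 0.724 CPM to 0.232, 0.200 and 0.230 CPM (-1.53), which did not pass on TPM (adjusted p = 0.068). Trim47 measured 1.31 CPM in each WT library and 0.542, 0.667 and 0.599 CPM in WTL (-1.11), and Trim17 went from 0.398, 0.711 and 0.793 CPM to 0.271, 0.133 and 0.230 CPM (-1.59). Trim41 fell from 41.5, 41.3 and 41.7 CPM to 26.6, 26.0 and 27.0 CPM (-0.65). Trim14, read below, overlaps Nans and had fractional counts in all 12 libraries, and Trim32 overlaps Astn2. Trim17 overlaps Hist3h2a, Trim16 Fbxw10, Trim46 Krtcap2, Trim41 Rack1, Trim28 Zbtb45, Trim2 Gm6525, and Trim47 and Trim65 overlap each other. Whether strand was used in counting is not given in the sources used here.

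Among the small falls, those of Trim25, Trim14 and Trim68 did not pass in every fit with 1 library left out. Trim25 measured 401, 394 and 393 CPM in WT and 375, 363 and 334 CPM in WTL, with all WTL libraries below WT. The log2 fold change was -0.15 (adjusted p = 0.0072) and became -0.10 (adjusted p = 0.064) without WTL replicate 6, but -0.23 under upper quartile scaling and -0.43 on TPM, both of which passed. The call of Trim14, an adaptor of antiviral signalling (-0.15), was lost without WT replicate 5 or 6 or without any 1 WTL library (log2 fold change -0.16 to -0.12, adjusted p 0.058 to 0.15), and with DESeq2 (adjusted p = 0.14). That of Trim68 (-0.32) was lost without WT replicate 4 or WTL replicate 4 or 5 (-0.36 to -0.22, adjusted p 0.052 to 0.19), and with DESeq2 (adjusted p = 0.095).

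The same question was asked in cells pre-treated with JSH-23, by comparing WTL + JSH23 with WT + JSH23, which share no library with the comparison above. Of the 47 members, 22 fell (46.8%) against 27.1% of all genes and 9 rose (19.1%) against 27.4% of all genes. The median was -0.18 for members and -0.02 for all genes. By more than 2-fold, 3 members rose (5.85% of all genes), again with Trim43b among them, and 3 fell (4.49% of all genes). On TPM, which moved the median of all genes to -0.16, 6 members rose and 27 fell, against 1977 and 5947 of all 14357 genes. Under upper quartile scaling (-0.10) 8 rose and 25 fell, against 3085 and 5090 of all genes.

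All 9 members that rose with LPS in the presence of JSH-23 had also risen without it (19.1% against 23.7% of all genes higher in both), and 21 members fell in both (44.7% against 23.6% of all genes). The 9 were Trim13, Trim21, Trim24, Trim26, Trim30a, Trim30c, Trim35, Trim36 and Trim43b. On TPM the rises with JSH-23 of Trim24 and Trim26 (0.08 and 0.10) did not pass and that of Trim30a was -0.04, while upper quartile scaling gave Trim30a 0.10 with an adjusted p of 0.061. No member passed the test in opposite directions in the 2 LPS comparisons.

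With JSH-23, Trim13 measured 7.47, 7.31 and 8.78 CPM without LPS and 19.6, 18.9 and 17.0 CPM with it (log2 fold change 1.24, SE 0.08). Its levels in both conditions were close to those without JSH-23. Trim21 rose from 49.97, 52.4 and 47.5 CPM to 112, 114 and 94.7 CPM (1.10, SE 0.06), both below the matching levels without the compound. Trim43b went from 0.0922, 0.109 and 0.170 CPM to 0.780, 0.716 and 0.778 CPM, with 11 counts in WT + JSH23 and 58 in WTL + JSH23, a ratio of 6.17 (95% counting interval 3.21 to 13.0). These were the 3 members that rose by more than 2-fold. Those that fell by more than 2-fold were Trim7, from 36.3, 34.1 and 30.5 CPM to 11.6, 12.3 and 12.3 CPM (-1.48), Trim29, from 3.32, 3.22 and 3.37 CPM to 1.88, 1.83 and 0.907 CPM (-1.08), and Trim2, from 2.52, 2.13 and 1.84 CPM to 0.992, 1.07 and 1.17 CPM (-1.01). The groups did not overlap in any of them, but on TPM the difference of Trim2 was 0.19 and did not pass.

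The small falls of Trim3, Trim59 and Trim68 in this comparison did not pass in every fit with 1 library left out. Trim3 (-0.17) did not pass without WT + JSH23 replicate 1 or 3 or WTL + JSH23 replicate 1 or 2 (-0.16 to -0.11, adjusted p 0.058 to 0.16), nor with DESeq2 (0.052). Trim59 (-0.29) did not pass without WT + JSH23 replicate 1 or 3 or WTL + JSH23 replicate 3 (-0.26 to -0.23, adjusted p 0.067 to 0.087), nor Trim68 (-0.35) without replicate 2 or 3 of either group (-0.31 to -0.26, adjusted p 0.084 to 0.12).

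**Figure D3:**
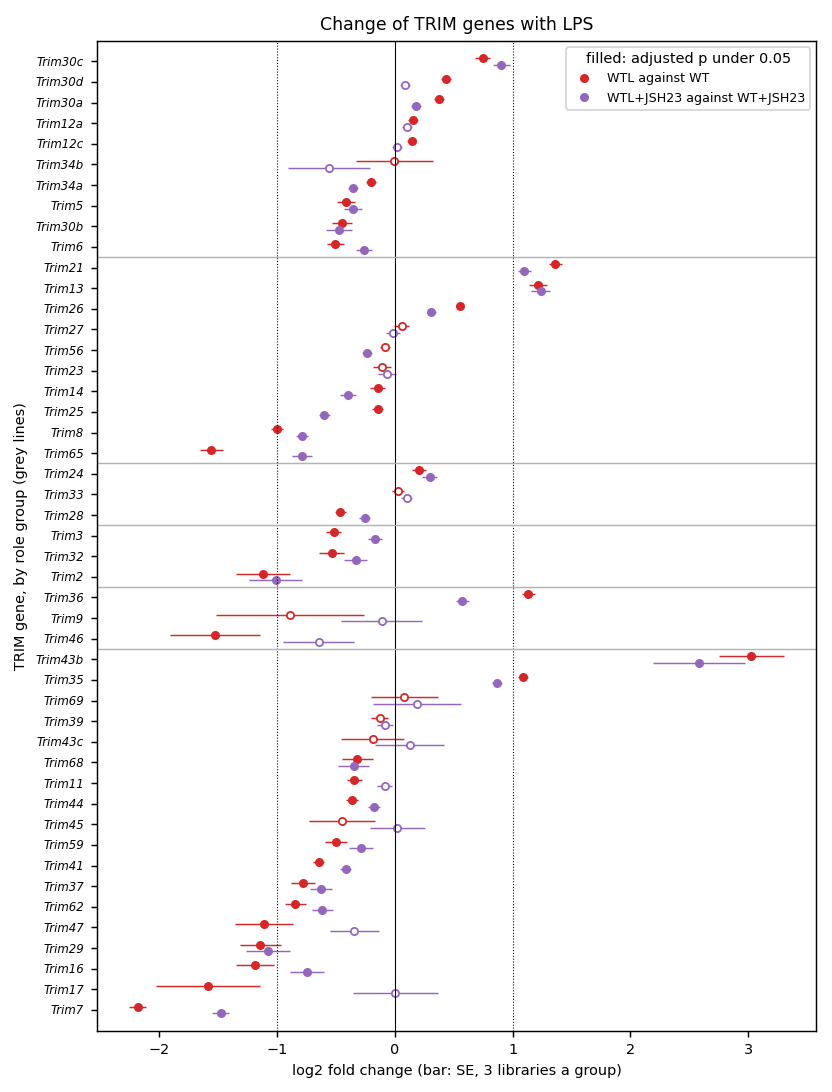
Log2 fold change with LPS of each TRIM gene without JSH-23 (red) and with it (purple), bars showing the SE from 3 libraries a group and filled points an adjusted p under 0.05; dotted lines mark a 2-fold change. Trim7 lies at -2.18 without and -1.48 with JSH-23.

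The effect of JSH-23 on the LPS response was tested as an interaction, the LPS change with JSH-23 minus that without. It passed for 13 of 47 members, with 6 higher (12.8%) against 9.54% of all genes and 7 lower (14.9%) against 8.44% of all genes. The median interaction was 0.09 for members and 0.03 for all genes. The split depended on the scaling. On TPM 7 members were higher and 3 lower, against 1400 and 362 of all 14357 genes. With DESeq2 3 were higher and 9 lower, against 1000 and 1440 of all genes. With DESeq2 size factors in edgeR 4 were higher and 9 lower, against 1150 and 1474 of all genes. Without WTL replicate 5 the count was 8, with 3 higher and 5 lower, against 968 and 912 of 14515 genes tested there.

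Trim36 had the largest negative interaction (-0.56, SE 0.08, adjusted p = 2.6e-05). With JSH-23 it measured 51.0, 51.5 and 47.7 CPM without LPS and 71.6, 81.5 and 70.1 CPM with it, so that its rise had a log2 fold change of 0.57 in place of 1.13. Trim25 followed (-0.45, SE 0.06, adjusted p = 4.5e-05). Its libraries measured 369, 391 and 407 CPM with JSH-23 alone and 247, 254 and 268 CPM with JSH-23 and LPS, a fall of -0.60 on the log2 scale. The WTL + JSH23 libraries of Trim25 lay below those of the other 3 groups.

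Trim30d and Trim26 also rose less. Trim30d measured 277, 275 and 275 CPM in WT + JSH23 and 294, 307 and 274 CPM in WTL + JSH23, and with JSH-23 its change did not pass (log2 fold change 0.08, adjusted p = 0.11; interaction -0.35). Trim26 rose from 76.0, 77.7 and 78.7 CPM to 95.5, 96.5 and 95.8 CPM with JSH-23 (interaction -0.24). For Trim35, 148, 161 and 163 CPM became 282, 277 and 299 CPM (interaction -0.22), and its WTL + JSH23 libraries covered the range of WTL. On TPM the interactions of Trim26, Trim30d and Trim35 were -0.06, -0.19 and -0.09 and did not pass.

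Among the positive interactions were genes that LPS lowered less after JSH-23. Trim65 fell from 19.8, 18.3 and 19.9 CPM to 11.4, 11.7 and 10.5 CPM, a log2 fold change of -0.79 against -1.56 without JSH-23 (interaction 0.77, SE 0.13). The interaction of Trim7 was 0.70 (SE 0.11) and that of Trim3, with 31.5, 30.6 and 31.6 CPM in WT + JSH23 and 26.9, 25.3 and 31.2 CPM in WTL + JSH23, was 0.35 (SE 0.09). The interaction of Trim2, also an NHL repeat member, was 0.11 and did not pass.

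Interactions of 5 further members passed in the fit to all libraries but not in every fit with 1 library left out. Trim41 (0.23), with 43.3, 44.4 and 42.9 CPM in WT + JSH23 and 32.2, 31.2 and 34.4 CPM in WTL + JSH23, did not pass without WTL replicate 5 (0.21, adjusted p = 0.064). Trim21 (-0.26) did not pass without WT replicate 4 or 6, WTL replicate 4 or 5, or WT + JSH23 replicate 2 (adjusted p 0.052 to 0.068). Trim30a (-0.19), with 562, 557 and 551 CPM in WT + JSH23 and 641, 658 and 592 CPM in WTL + JSH23, did not pass without WT replicate 4 or 6, WTL replicate 4 or 5, WT + JSH23 replicate 1 or 2, or WTL + JSH23 replicate 3 (adjusted p 0.051 to 0.099). Trim28 (0.21), with 75.8, 74.6 and 75.1 CPM in WT + JSH23 and 64.6, 58.1 and 66.1 CPM in WTL + JSH23, passed with 1 library left out only when that was WT replicate 5, WTL replicate 6 or WTL + JSH23 replicate 2 (otherwise adjusted p 0.055 to 0.094). Trim8 (0.21), with 48.0, 49.8 and 45.2 CPM in WT + JSH23 and 27.4, 27.4 and 27.9 CPM in WTL + JSH23, passed only when the library left out was WTL replicate 6 or WT + JSH23 replicate 2 (otherwise adjusted p 0.058 to 0.14). On TPM, Trim21 (-0.11, adjusted p = 0.52), Trim30a (-0.10, adjusted p = 0.27) and Trim28 (0.14, adjusted p = 0.23) did not pass either. With DESeq2, Trim41 (0.21, adjusted p = 0.066), Trim28 (0.18, adjusted p = 0.060) and Trim8 (0.18, adjusted p = 0.11) did not pass, nor did Trim28 and Trim8 with DESeq2 size factors in edgeR (adjusted p 0.059 and 0.078).

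**Figure D4:**
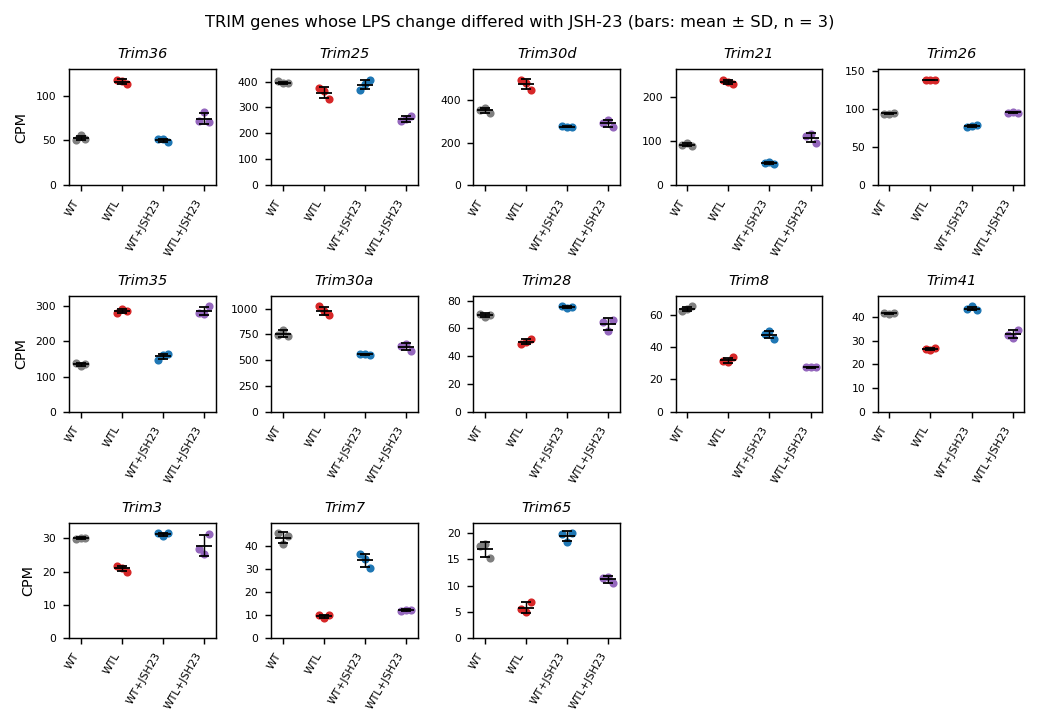
CPM of the 13 TRIM genes that passed the interaction test, with 1 point per library, the mean and SD (n = 3) in black, and each axis starting at 0. Trim25 is lowest in WTL + JSH23, and the mean of Trim36 is 52.8 CPM in WT and 116 in WTL but 50.1 in WT + JSH23 and 74.4 in WTL + JSH23.

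To see what JSH-23 did in LPS-treated cells, WTL + JSH23 was compared with WTL. Here 18 members were higher (38.3%) against 24.5% of all genes and 17 were lower (36.2%) against 24.2%. The medians were -0.01 for members and 0.02 for all genes. By more than 2-fold, 5 members were higher (3.75% of all genes) and 4 lower (3.25% of all genes). The 5 included Trim9, which met the minimum of the family through its JSH-23 libraries, so its being higher is partly set by that rule. The same holds for Trim17 and Trim46, also among the 5, which met the minimum through groups other than WTL (5.17 and 5.67 mean counts there). The 4 included Trim43b, which met the minimum through its LPS libraries. In untreated cells, WT + JSH23 against WT, 9 members were higher (19.1%) against 18.8% of all genes and 17 were lower (36.2%) against 22.1%, with medians of -0.05 and -0.01. By more than 2-fold, 1 member, again Trim9, was higher (2.43% of all genes) and 4 were lower (2.94% of all genes). These comparisons share no library with each other, and 14 members (29.8%) were lower in both, against 15.2% of all genes. The members higher in both, Trim9 among them, were 7 (14.9%), against 13.4%.

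The lower side was led by the cluster. Of its 10 genes, 7 were lower with JSH-23 in LPS-treated cells (70% against 24.2% of all genes, cluster median -0.50). In untreated cells 8 were lower (80% against 22.1%, cluster median -0.34). Trim30b measured 11.6, 11.03 and 10.7 CPM in WT + JSH23 and 7.55, 10.1 and 6.31 CPM in WTL + JSH23, below every library without JSH-23 (log2 fold changes -1.26 against WT and -1.29 against WTL). Trim30c measured 10.3, 10.3 and 10.9 CPM in WT + JSH23 and 18.1, 18.9 and 22.04 CPM in WTL + JSH23 (-1.11 and -0.95). Each lay below the group with the same LPS state. Trim30a was lower by -0.44 without LPS and by -0.64 with it on the log2 scale, and Trim30d by -0.36 and -0.71. Trim12a (-0.33 and -0.38), Trim12c (-0.31 and -0.43) and Trim34a (-0.42 and -0.57) moved in the same direction. Trim5 passed only without LPS (-0.20), and not without WT replicate 4 or 6 or WT + JSH23 replicate 2 or 3 (adjusted p 0.053 to 0.20), and whether its 2 changes differ was tested by its interaction, which did not pass (0.06). Trim6, at the end of the cluster, was higher in both (0.33 and 0.57), although without LPS this did not pass on TPM (adjusted p = 0.056).

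In the innate signalling group, 6 of 10 members were lower with JSH-23 in LPS-treated cells (60% against 24.2% of all genes). In untreated cells 4 were lower (40% against 22.1%). Trim21 changed most, with log2 fold changes of -0.86 without LPS and -1.13 with it (SE 0.06 and 0.05). Trim14 measured 37.9, 44.4 and 37.2 CPM in WT + JSH23 and 27.5, 31.2 and 31.9 CPM in WTL + JSH23, against 52.8 to 55.4 CPM in WT and 47.0 to 50.3 CPM in WTL (-0.45 and -0.71). Trim26 (-0.29 and -0.53) and Trim8 (-0.41 and -0.20) were lower in both, with Trim8 in LPS-treated cells not passing on TPM (-0.07). Trim25 was lower in LPS-treated cells (-0.48, adjusted p = 1.6e-08), while in untreated cells its log2 fold change was -0.03 (adjusted p = 0.69). Trim56, a partner of the STING pathway, was lower with LPS (-0.20) and did not pass without it (-0.05).

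Trim13 did not pass in either state (log2 fold changes -0.02 and 0.01, SE 0.09 and 0.07). Trim65 was higher in LPS-treated cells (0.96, SE 0.10). Trim23 was higher in both (0.20 and 0.24), though not without WT replicate 4, 5 or 6 or WT + JSH23 replicate 1 or 3 in untreated cells (adjusted p 0.071 to 0.12), nor without WTL replicate 5 or WTL + JSH23 replicate 1 or 2 in LPS-treated cells (adjusted p 0.058 to 0.085).

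On the higher side, Trim9, a neuronal ligase involved in axon guidance, was scarce and met the minimum of the family through its JSH-23 libraries (mean counts of 23.7 in WT + JSH23 and 18.7 in WTL + JSH23, against 6.33 in WT and 2.67 in WTL). It measured 0.214, 0.171 and 0.207 CPM in WT, 0.0775, 0.0667 and 0.184 CPM in WTL, 0.768, 0.398 and 1.19 CPM in WT + JSH23 and 0.815, 0.756 and 0.605 CPM in WTL + JSH23. Every library with JSH-23 was above every library without it, at 11 to 35 counts against 2 to 7. The ratio of scaled counts was 4.04 without LPS (95% counting interval 2.41 to 7.10) and 7.09 with it (3.36 to 17.2), and the fitted changes passed in both (adjusted p = 0.00053 and 0.00012). Trim45 measured 1.04, 1.19 and 0.793 CPM in WT and 1.72, 1.59 and 1.63 CPM in WT + JSH23, and 0.736, 0.933 and 0.506 CPM in WTL and 1.17, 2.03 and 1.86 CPM in WTL + JSH23 (0.70 and 1.17). Its change without LPS did not pass without WT replicate 4 or 6 or WT + JSH23 replicate 1 or 3 (adjusted p 0.055 to 0.11), nor on TPM (0.12).

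In LPS-treated cells, Trim46 (0.425, 0.597 and 0.864 CPM in WTL + JSH23, log2 fold change 1.48), Trim47 (1.20, 1.31 and 1.77 CPM, 1.22) and Trim17 (0.850, 0.477 and 0.432 CPM, 1.51) were also higher by more than 2-fold. All 3 had been lowered by LPS, and their values in WT + JSH23 were 0.749 to 1.16, 1.497 to 2.09 and 0.476 to 0.832 CPM. Trim17 did not pass without WTL replicate 5 (1.23, adjusted p = 0.064) or WTL + JSH23 replicate 1 (1.12, adjusted p = 0.088), nor on TPM (adjusted p = 0.070). Trim16 measured 4.36, 4.23 and 3.85 CPM in WT + JSH23 and 2.48, 2.15 and 2.81 CPM in WTL + JSH23 (0.76 in LPS-treated cells). Trim37 (0.46 and 0.62), Trim39 (0.29 and 0.33) and Trim32 (0.27 and 0.47) were higher in both states, Trim32 without LPS not passing without WT replicate 4 or any 1 WT + JSH23 library (adjusted p 0.052 to 0.18).

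Lower by more than 2-fold in both states were Trim30b, Trim43b and Trim69. Trim69 measured 0.765, 0.797 and 1.00 CPM in WT and 0.399, 0.398 and 0.272 CPM in WT + JSH23, and 0.930, 0.967 and 0.783 CPM in WTL and 0.248, 0.597 and 0.389 CPM in WTL + JSH23 (-1.24 and -1.14). It overlaps Patl2, and in LPS-treated cells it did not pass without WTL + JSH23 replicate 1 (-0.85, adjusted p = 0.057). For Trim43b the ratio of scaled counts was 0.305 in LPS-treated cells (95% counting interval 0.223 to 0.410) and 0.410 in untreated cells (0.185 to 0.846). The latter change did not pass without WT replicate 5 or 6 or WT + JSH23 replicate 1 or 2 (adjusted p 0.0503 to 0.19), nor with DESeq2 (0.058) or on TPM (0.0996). Trim35 was slightly higher without LPS (0.22) and did not pass with it (-0.01). Trim7 was lower in untreated cells (-0.37) and higher in LPS-treated cells (0.33). Trim24 (-0.18) was lower and Trim27 (0.18) higher without LPS, Trim24 not passing without WT replicate 4 or WT + JSH23 replicate 2 or 3 (adjusted p 0.094 to 0.11), and Trim27 not without WT replicate 4 or 5 or WT + JSH23 replicate 2 or 3 (adjusted p 0.059 to 0.087).

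**Figure D5:**
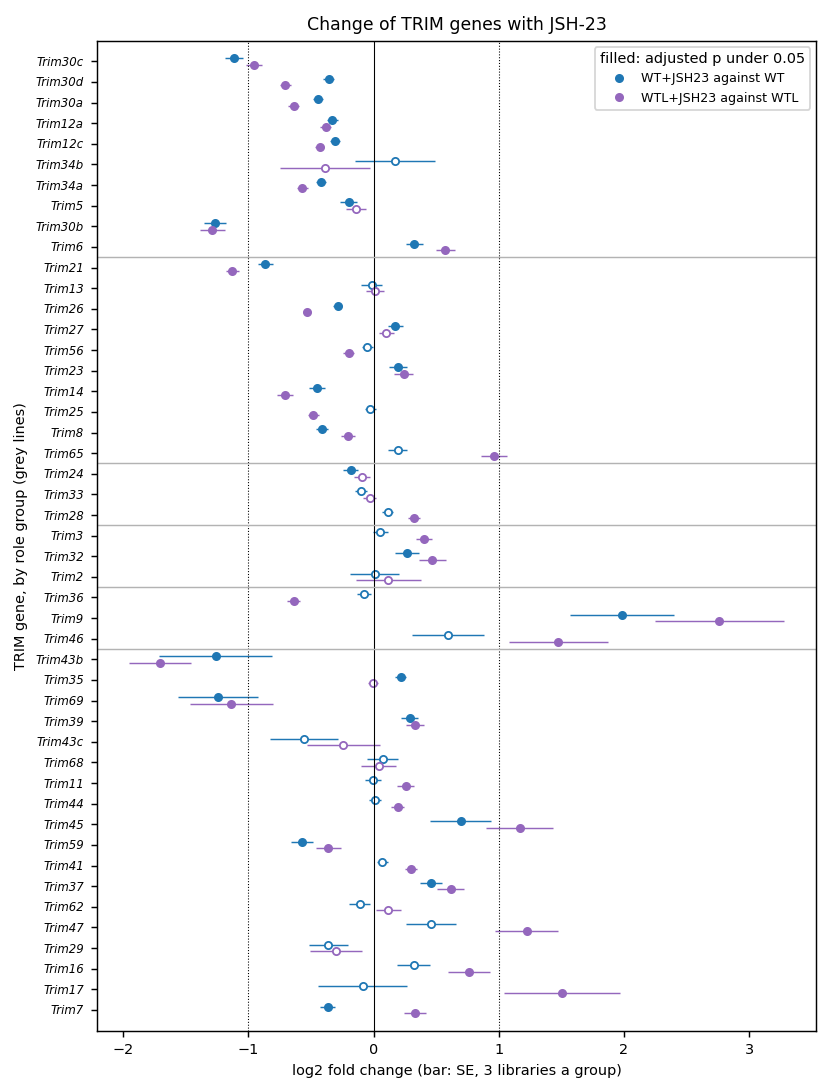
Log2 fold change with JSH-23 of each TRIM gene without LPS (blue) and with LPS (purple), bars showing the SE and filled points an adjusted p under 0.05. In the top block, the cluster, 9 of 10 genes lie left of 0 with LPS and Trim6 lies right of it.

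Trim33, Trim34b and Trim43c passed in none of the comparisons. Each member was also placed by its symbol in a single class, and 25 stood in the PRY-SPRY class. Domains were not read from sequence. Members of other classes, such as those without a RING domain, may carry PRY-SPRY too, so 25 is not a count of the domain. Of the 25, 13 fell and 8 rose with LPS in the absence of JSH-23 (52% and 32%, against 34.7% and 31% of all genes). With JSH-23, 11 were lower and 8 higher in LPS-treated cells (44% and 32%, against 24.2% and 24.5% of all genes), and 12 were lower and 4 higher in untreated cells (48% and 16%, against 22.1% and 18.8%).

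TRIM genes that go by other names were read beside the family. Pml (TRIM19), which organises nuclear bodies, did not pass with LPS alone (0.03) and was lower with JSH-23 without LPS (-0.65) and with it (-0.93). Mefv (TRIM20), the pyrin inflammasome sensor, rose with LPS by 1.75 and 1.91 on the log2 scale and was lower with JSH-23 by -1.21 and -1.05. Mid1 (TRIM18), a microtubule-associated ligase, was higher with JSH-23 (1.07 and 2.59), but its WTL + JSH23 libraries were uneven. They measured 28.4 ± 13.5 CPM, against 4.72 ± 0.484 in WTL and 12.4 ± 1.65 in WT + JSH23 (SD, n = 3). Mid1 rose with LPS after JSH-23 (1.18) and did not pass without it (-0.34), and its interaction passed (1.52, adjusted p = 0.0037). Mid2 (TRIM1) passed in no comparison.

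Genes of the pathways in which TRIM proteins act moved as follows. Of 23 tested genes of RNA and DNA sensing, 16 rose and 3 fell with LPS alone (69.6% and 13.0%, against 31% and 34.7% of all genes), and 11 rose and 3 fell with LPS after JSH-23 (47.8% and 13.0%, against 27.4% and 27.1%). With JSH-23 itself 4 were higher and 15 lower in LPS-treated cells (17.4% and 65.2%, against 24.5% and 24.2% of all genes, list median -0.24), and 3 were higher and 14 lower in untreated cells (13.0% and 60.9%, against 18.8% and 22.1%, list median -0.17). By more than 2-fold, Isg15, an interferon-induced ubiquitin-like protein, rose with LPS alone (1.01). Mavs, the adaptor of the RNA sensors, fell with LPS alone (-1.54) and after JSH-23 (-1.08). With JSH-23 in LPS-treated cells, Tlr3 (-1.30), Usp18 (-1.28) and Ddx58, which encodes RIG-I (-1.10), were lower. In untreated cells Tlr3 (-1.42) and Ikbke (-1.05) were lower with JSH-23. Of 12 genes of type I interferon signalling, to be read against the same shares of all genes, 7 rose (58.3%) and 2 fell with LPS alone and 8 rose (66.7%) and 3 fell after JSH-23, while with JSH-23 all 12 were lower in LPS-treated cells (median -0.57) and 11 (91.7%) in untreated cells (-0.49). Ifnb1, the interferon itself, measured 0.399 ± 0.0746 CPM in WT, 1.81 ± 0.312 in WTL, 0.0443 ± 0.0524 in WT + JSH23 and 0.215 ± 0.0944 in WTL + JSH23 (SD, n = 3), at 0 to 49 counts a library. Its log2 fold changes were 2.15 for LPS alone, 2.13 for LPS after JSH-23, -3.05 for JSH-23 in untreated cells and -3.07 in LPS-treated cells, and its interaction did not pass (-0.02, adjusted p = 0.97). Of the markers named above, 6 of 7 for macrophages and 6 of 6 tested for neutrophils were lower with JSH-23 in LPS-treated cells, and 5 of 7 and 1 of 6 in untreated cells. Of the 6 dendritic cell markers tested, 4 were lower and 1 higher with JSH-23 in LPS-treated cells, and 2 were lower and 2 higher in untreated cells. Of all genes, 24.2% were lower and 24.5% higher in LPS-treated cells, and 22.1% and 18.8% in untreated cells. The part of these markers in the lower levels of the cluster was not tested.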

How the data were processed

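The authors trimmed reads with Trim Galore, aligned them to mm10 with STAR (version 2.6.0c in the submitters' processing notes) and estimated expression with RSEM on GENCODE genes, the release of which is not given in the sources used here. The deposited expected counts per gene divide reads that fit several genes between them, and 16 members had fractional counts. The deposited TPM values are the authors' own, derived by RSEM from expected counts and effective lengths. The labels name an rRNA depletion kit and the methods of the study another RNA selection, and which applied was not settled.

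Symbols and positions came from GENCODE M21 (GRCm38, the build of mm10), which matched 55154 of 55335 identifiers. Expected counts were rounded and filtered with filterByExpr, which left 14357 genes, and scaled by TMM. The quasi-likelihood F-test of edgeR 4.0.16 (R 4.3.3) was fitted to all 12 libraries, with 8 residual degrees of freedom, and p values were adjusted by Benjamini-Hochberg over all genes tested in each of 5 comparisons. A member was called at an adjusted p under 0.05, and "rose", "fell", "higher" and "lower" are used of such members. SE is the absolute log2 fold change divided by the square root of F. Intervals for low counts cover counting error only. The script was tested on simulated data. DESeq2 1.42.0, limma 3.58.1 on log2(TPM + 1), other scalings and filters, a replicate block and fits without 1 library were run as alternatives.

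Members, gene lists, marker lists and the naming rule were chosen with earlier results of these data known. The rule gives library values for Trim25, which the study singled out, and for members called with more than 2-fold change or called in the interaction. Same-numbered libraries of WT and WTL, and of the JSH-23 groups, had deviations correlated at 0.01 to 0.06 over 6 pairs. The 12 pairs with other numbers ran from -0.06 to 0.04, and 10 of the 12 libraries were closest to their own number. The correlations were weak, and whether numbers pair libraries was not settled. The main fit left libraries unpaired, and a fit with the replicate number as a block is given below. No 2 libraries agreed within sampling noise. HOMER is also named in the submitters' notes, and nothing made with it was used here.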

Additional observations from a re-analysis of the deposited data

Results flagged for a closer look

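The LPS change of 13 members depended on JSH-23 by the test of the difference itself. The difference of log2 fold changes, with minus without JSH-23, was negative for Trim36 (-0.56), Trim25 (-0.45), Trim30d (-0.35), Trim21 (-0.26), Trim26 (-0.24), Trim35 (-0.22) and Trim30a (-0.19). It was positive for Trim65 (0.77), Trim7 (0.70), Trim3 (0.35), Trim41 (0.23), Trim8 (0.21) and Trim28 (0.21). The values of Trim21, Trim28, Trim30a, Trim41 and Trim8 did not pass in every fit with 1 library left out. With all libraries, no member passed in edgeR or DESeq2 with a difference of more than 2-fold (Trim17 had an unadjusted p under 0.05), while Trim17 did in edgeR without WT replicate 4, WT + JSH23 replicate 2 or WTL + JSH23 replicate 3 (1.84, 1.88 and 1.76).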

How the results depend on the processing

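Requiring a change of more than 2-fold as well as an adjusted p under 0.05 left 13 members for LPS alone, 6 for LPS after JSH-23, 9 and 5 for JSH-23 in LPS-treated and untreated cells and 0 for the interaction with edgeR. DESeq2 gave the same numbers except 4 for JSH-23 in untreated cells. Of all 14357 genes, 1056 rose and 1305 fell by more than 2-fold with LPS alone in edgeR, and 840 and 644 after JSH-23. With JSH-23, 538 were higher and 467 lower in LPS-treated cells, and 349 and 422 in untreated cells. The interaction was higher for 134 and lower for 58. The pairwise edgeR counts of members include Trim43b or Trim9, which met the minimum of the family through the groups where they were high. Those for LPS alone and for JSH-23 in LPS-treated cells also include Trim17 and Trim46, which were under the minimum in WTL. For the interaction Trim17 alone had more than 2-fold and an unadjusted p under 0.05, and it passed without WT replicate 4, WT + JSH23 replicate 2 or WTL + JSH23 replicate 3. Of the 26 members with no fractional count and no overlapping gene, a subset chosen after seeing the data, 19, 19, 18, 15 and 7 passed. With LPS alone 26.9% of the 26 rose and 46.2% fell, against 31.0% and 34.7% of all genes. After JSH-23 the shares were the same, against 27.4% and 27.1%. With JSH-23, 34.6% were higher and 34.6% lower in LPS-treated cells (24.5% and 24.2% of all genes). In untreated cells these were 30.8% and 26.9% (18.8% and 22.1%), and for the interaction 7.69% and 19.2% (9.54% and 8.44%). Leaving out 1 library gave 35 to 37, 29 to 32, 32 to 35, 20 to 29 and 8 to 14 members, the 8 without WTL replicate 5. Of 14472 to 14689 genes tested in these fits, 4184 to 4585 rose and 4638 to 5133 fell with LPS alone. After JSH-23 3646 to 3938 rose and 3537 to 3889 fell. With JSH-23, 3072 to 3499 were higher and 3119 to 3474 lower in LPS-treated cells. In untreated cells these were 2310 to 2888 and 2742 to 3342. The interaction was higher for 968 to 1458 and lower for 902 to 1380. Of the calls, 28 of 37, 24 of 31, 30 of 35, 18 of 26 and 5 of 13 held wherever the member was tested. An alternative that did not test a member was not counted against its call. Where a mean of at least 1 CPM was required, only 41 members were tested, and scarce members such as Trim9, Trim43b and Trim46 were left out. On TPM with limma, Trim2 (0.19), Trim30a (-0.036) and Trim30d (-0.092) turned sign for LPS with JSH-23. Over fits without 1 library, Trim2 ran from -0.16 to 0.32 for JSH-23 in LPS-treated cells and from -0.17 to 0.31 for the interaction, negative without WTL replicate 5. The cause was not tested.

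With the replicate number as a block within each JSH-23 arm, 36 members passed for LPS alone, 31 for LPS after JSH-23 and 16 for the interaction. Of all 14357 genes in that fit, 4519 rose and 5020 fell with LPS alone, and 4021 rose and 3939 fell after JSH-23. The interaction was higher for 1559 and lower for 1409 of them, against 1370 and 1212 in the main fit. Of the libraries, 10 of 12 correlated best with their own number. For JSH-23 against no JSH-23 no paired analysis was possible because the groups share no replicate numbers. Members with few counts, such as Trim9, Trim17 and Trim34b, are limited by depth, and members sharing sequence by how reads were divided.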
